A study of Homo sapiens with 4 samples.

Results

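Mitosis and cell-cycle control genes were followed through a 4-array microarray series, as a named list of 50 genes that encode cyclins, cyclin-dependent kinases (CDKs) and their inhibitors, mitotic kinases, spindle checkpoint and kinetochore proteins, kinesins and proliferation markers. The genes were listed by name and not by a threshold on measured values, but the list was drawn up with earlier results of these data known. A probe was assigned to a gene when the transcript accession printed for it on the array design belonged to that gene. By this rule 49 of the 50 genes had at least 1 probe, and UBE2C, the ubiquitin-conjugating enzyme that works with the anaphase-promoting complex, had none. The 49 genes were read by 61 probes, and all 61 were well above background on all 4 arrays, so that no member was lost to a filter on low signal. In the whole series 13602 genes were detected on all 4 arrays.

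HuCCT1, an established human intrahepatic cholangiocarcinoma cell line, was transfected at 30 nM. The cultures received Pre-miR-376c (a mimic of the mature microRNA), a Pre-miR negative control, an siRNA against GRB2, or an siRNA negative control. GRB2 is the adaptor that couples the activated EGF receptor to RAS, and the question behind the arrays was which mRNAs respond to the microRNA and to loss of this target. After 24 h, all 4 cultures were moved to 0.1% serum with 5 ng/ml epidermal growth factor (EGF) for 24 h, so every array, controls included, shows EGF-treated cells. The arrays are called miR-376c, miControl, siGRB2 and siControl here. There was 1 array per condition, from 1 culture each, so no difference between conditions has a replicate, no test was possible, and every difference is that of 1 array from another.

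The level of a gene is the log2 of its background-corrected spot intensity minus the log2 of the 75th percentile of its array, averaged over its probes. Levels may be set against each other for the same gene on different arrays but not between genes, because probes differ in brightness. As measures of technical error, the SD between the 10 printed spots of a member probe ran from 0.0156 to 0.0823 log2 units with a median of 0.0459, and the scanner software's own error for a difference between 2 arrays was 0.204 to 0.228 log2 units. Neither covers the spread between cultures. A difference was counted at 1.5-fold and at the 2-fold limit that the study used.

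The targeted gene was read first. GRB2 had a level of 0.62 on miControl, -0.10 on siControl, 0.07 on miR-376c and -0.65 on siGRB2. It was thus lowest on the siGRB2 array, at 68.2% of siControl and 41.4% of miControl. On the miR-376c array it was at 68.3% of miControl and 112.6% of siControl, between both controls. Each treated array was thus lower than the negative control of its own kind by a similar amount. Raw 75th percentile intensities were 1720 to 2690, and siControl had the lowest value and the fewest probes above background (21824, against 22540 to 24133 on the other arrays). The siControl array stands apart in the genes too. Across all 13602 genes, siGRB2 was nearer to miControl than to its own siRNA control for 74.5%, and miR-376c for 65.3%. Comparisons with both controls are therefore given side by side, and the values against miControl are those without the siControl array. Biliary and simple epithelial markers were above background on all 4 arrays (8 of 8, KRT7, KRT19 and EPCAM among them). Of 4 hepatocyte markers, ALB and TTR were on none, while SERPINA1 (level at most 2.27) and APOA1 (-4.32 to -3.77) were on all 4. Also on none were 4 of 5 fibroblast markers (COL1A2, COL3A1, PDGFRB and DCN), the other, COL1A1, being on all 4 and lower on miR-376c (-1.01 against miControl and -0.63 against siControl), and its part in the results was not tested. Leukocyte (3 of 5) and endothelial (2 of 4) markers that passed had levels of -1.28 or lower on every array.

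Progress through the cell cycle is driven by CDKs, which are switched on by cyclins, held back by inhibitors such as p21 and p27, and activated by CDC25 phosphatases. D-type and E-type cyclins act in G1 and at entry into S phase, cyclin A through S and G2, and cyclin B with CDK1 at entry into mitosis. Many mitotic genes are transcribed together late in the cycle by FOXM1 and B-MYB and are repressed in resting cells by the DREAM complex, which reads a promoter element called the cell cycle genes homology region (CHR). In bulk RNA, a smaller share of cells in G2 or mitosis and less of such an mRNA per cell cannot be told apart.

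The CHR is shown because it is the element through which the DREAM complex is known to act on mitotic genes. RefSeq promoters (build GRCh38.p14, 250 bases before to 50 bases after each annotated start site) were matched by symbol for 40 of the 50 genes, which have 54 such promoters. A CHR, spelled TTTGAA or TTCGAA and sought on both strands, was found in 25 of the 54 (46.3%), against 16.4% of all 35116 promoters of the same length. The match is a description of letters and not evidence of binding. In these windows the CHR is in capitals and the gene's own strand is written 5′ to 3′. KIF11 carries the reverse complement, TTCAAA.
CDK1: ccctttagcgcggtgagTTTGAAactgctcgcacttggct
CCNB2: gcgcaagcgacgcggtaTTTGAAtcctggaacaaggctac
PLK1: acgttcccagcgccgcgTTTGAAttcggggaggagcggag
CDC20: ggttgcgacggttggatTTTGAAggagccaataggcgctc
BUB1: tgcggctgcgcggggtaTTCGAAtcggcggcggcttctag
MAD2L1: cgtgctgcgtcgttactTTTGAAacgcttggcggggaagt
NUF2: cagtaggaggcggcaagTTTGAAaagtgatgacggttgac
KIF11: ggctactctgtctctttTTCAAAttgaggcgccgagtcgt

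These windows lie at chr10:60778448-60778487 for CDK1, chr15:59105100-59105139 for CCNB2, chr16:23678843-23678882 for PLK1 and chr1:43358899-43358938 for CDC20, all on the plus strand. BUB1 lies at chr2:110678040-110678079 and MAD2L1 at chr4:120066802-120066841 on the minus strand. NUF2 lies at chr1:163321953-163321992 and KIF11 at chr10:92593085-92593124 on the plus strand. The CHR began 13 bases before the start site in CDK1, 29 in CCNB2 and PLK1, 28 in KIF11 and 65 in CDC20, and after it in BUB1, MAD2L1 and NUF2. Among members assigned to a G2 and M peak, 22 of 30 matched genes had a CHR and 24 of 30 a CCAAT box. Among G1 and G1/S control genes 0 of 9 and 4 of 9 did. Counted in the same way per gene, 19.5% of all genes had a CHR and 39.7% a CCAAT box, so 4 of 9 is near the share of all genes. The CCAAT box, spelled CCAAT, was in 64.8% of the members' promoters and 34.6% of all, and E2F sites (TTTCGCGC, TTTGGCGC or TTTCCCGC) in 9.26% and 2.74%, again on both strands. None of these spellings contains another, though neighbouring matches may share bases. The mature microRNA that the Pre-miR mimics is hsa-miR-376c-3p, encoded at chr14:101039732-101039752 on the plus strand, with its seed (bases 2 to 8) in capitals.
hsa-miR-376c-3p: aACAUAGAggaaauuccacgu

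**Figure D1:**
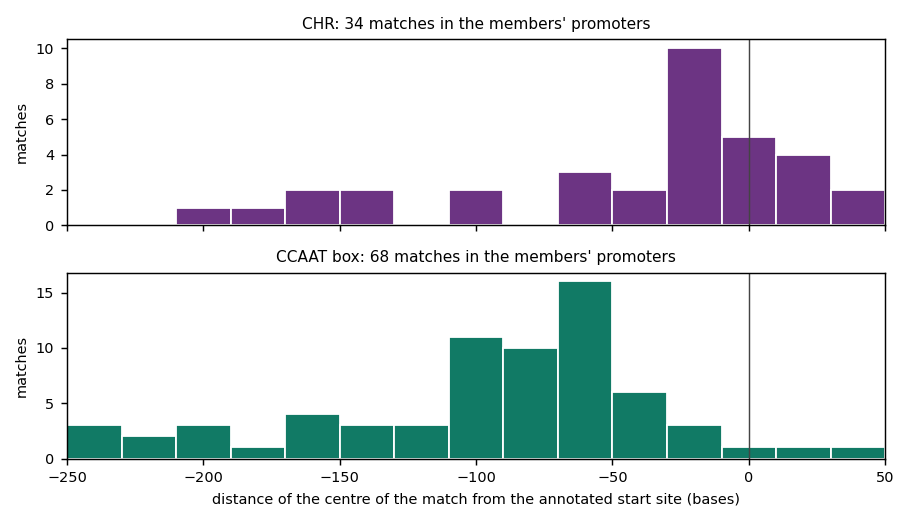
Number of motif matches in the 54 RefSeq promoters of 40 cell-cycle genes (vertical axis) by distance of the match's centre from the annotated start site in bases (horizontal axis, 20-base bins, negative values lie before the start). The 34 CHR matches have their median 25.5 bases before the start site and the 68 CCAAT matches 83.5 bases before it. Where promoters of a gene overlap, a shared site is counted in each of them, as for a CHR of CDC25C and CCAAT boxes of PTTG1.

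With Pre-miR-376c, cell-cycle genes were slightly higher than with the Pre-miR negative control. The members' median log2 difference was 0.25 (1.19-fold), with 39 of 49 higher (46.9% of all genes), while the median over all 13602 genes was -0.02. At 1.5-fold, 2 members were higher (2.68% of all genes) and 0 lower (5.12% of all genes). The 2 were CCNE2, a cyclin that opens S phase, and MAD2L1, the checkpoint protein that holds back CDC20. At 2-fold no member passed in either direction (0.434% of all genes higher, 0.706% lower). The members' median stayed between 0.20 and 0.36 over the other ways of normalizing and summarizing the arrays, and was 0.21 to 0.27 above that of all genes.

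Against siControl, the same array gave no such shift. The median was 0.02 beside 0.06 over all genes, and its sign depended on the scaling, with a range from -0.14 to 0.13. At 1.5-fold, 8 members were higher (11.4% of all genes) and 3 lower (10.7%). At 2-fold, CCND1, CDKN1A and AURKB were higher (2.07% of all genes) and none lower (2.49%).

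Knockdown of GRB2 left the list close to the Pre-miR control and below the siRNA control. The members' median was -0.02 against miControl (0.03 over all genes), and no member passed 1.5-fold higher (2.71% of all genes) or lower (2.4%), nor 2-fold higher (0.507%) or lower (0.426%). Against siControl the median was -0.16 where that of all genes was 0.11. Here 13 members were at least 1.5-fold lower (10.9% of all genes) and 5 higher (17.6%). At 2-fold MAD2L1 was lower (2.44% of all genes), and CCND1, CDKN1A and AURKB were higher (4.3%). The median stayed below 0 under every alternative way of normalizing or summarizing, from -0.45 to -0.07.

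The negative controls also differed from each other. The median size of that gap over the members was 0.30 log2 units, beside 0.27 (miR-376c) and 0.12 (siGRB2) for the treated arrays against miControl and 0.38 and 0.43 against siControl. Over all genes the gap was 0.34, beside 0.19 and 0.16 against miControl and 0.32 and 0.38 against siControl. In siControl minus miControl, the members' median was 0.14 (range 0.07 to 0.41 over the alternatives) and that of all genes -0.08. At 1.5-fold 9 members were higher (10.4% of all genes) and 5 lower (14.7%). At 2-fold MAD2L1 was higher (2.06%), and AURKB and CDKN1A were lower (3.64%). These 3 genes and CCND1 are all the members past 2-fold in any comparison with siControl. The siGRB2 array was nearer to miControl than to siControl for 43 of 49 members (74.5% of all genes), and the miR-376c array for 34 of 49 (65.3%).

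**Figure D2:**
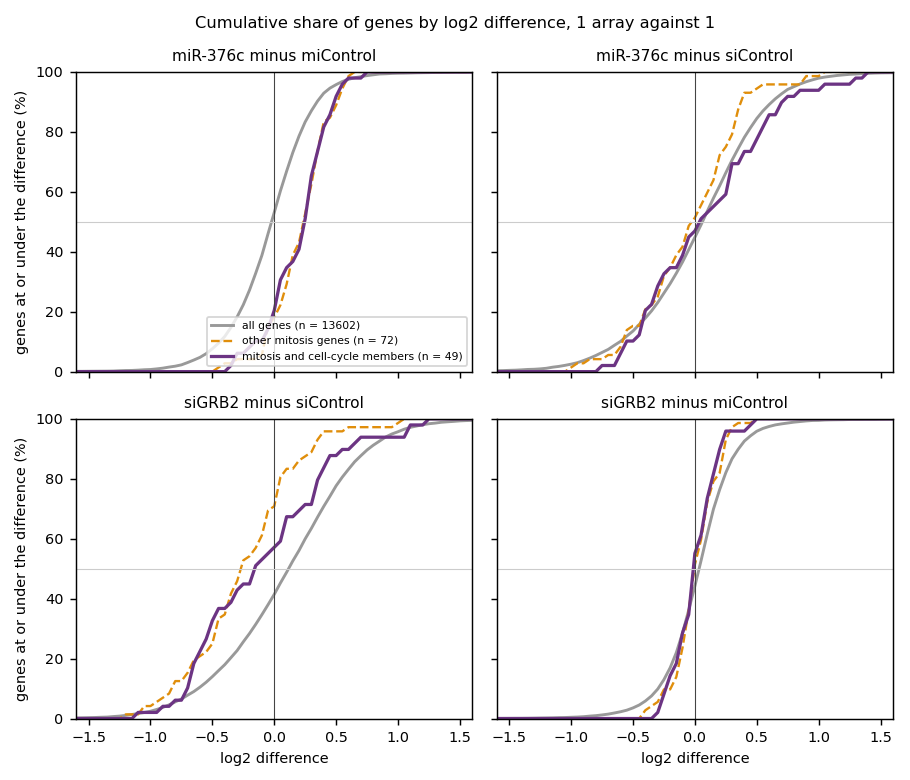
Cumulative share of genes (vertical axis, percent) at or under a log2 difference (horizontal axis) for the 49 cell-cycle members, 72 other mitosis genes and all 13602 genes, in 4 comparisons of 1 array with 1 other. The members' median lies right of that of all genes in miR-376c minus miControl (0.25 and -0.02) and left of it in siGRB2 minus siControl (-0.16 and 0.11), and the sign of the median in miR-376c minus siControl changes with the scaling.

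No member was at least 1.5-fold away from both controls in 1 direction with either treatment. Over all genes this held for 0.809% and 1.59% (higher and lower with miR-376c) and for 1.26% and 0.934% (with siGRB2). By position alone, the miR-376c array lay above both controls for 22 of 49 members (29.3% of all genes) and below both for 6 (27.2%). The siGRB2 array lay above both for 15 (38.3% of all genes) and below both for 21 (23.9%). Both treated arrays were above both controls for 13 members (20.1% of all genes), among them CCNA2, CCND1, CDK4, PLK1, AURKA, KIF11 and CDC20, and below both for 5 (13.6%), namely CDK6, CDC25B, BUB3, CENPF and KIF2C. For PLK1 this held for the mean of its 2 probes but for neither probe alone. In 1 probe miR-376c was at -0.70 and miControl at -0.63, and in the other siGRB2 was at -3.51 and miControl at -3.50. For BUB3, 1 of 2 probes had miR-376c at 2.14, above miControl (2.11) and siControl (1.97). KIF2C differed from miControl by only -0.02 (miR-376c) and -0.06 (siGRB2), less than the scanner error. Under all 11 ways of normalizing and summarizing, 8 of the 13 stayed above (CCNA2, CCND1, CDK2, CDK4, CDKN2C, AURKA, KIF20A and KIF11) and 2 of the 5 stayed below (CDK6 and CDC25B).

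**Figure D3:**
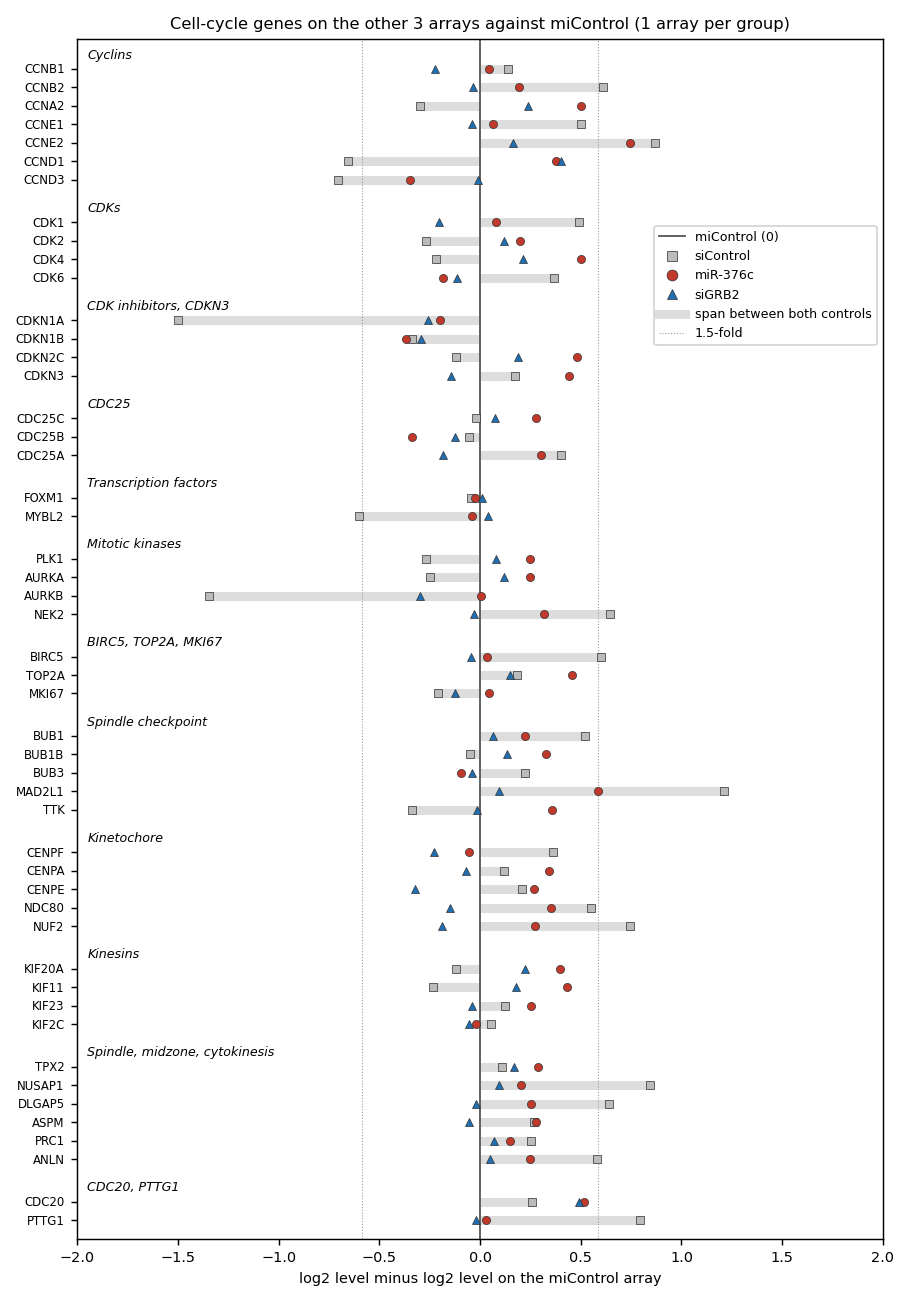
Log2 level of each of 49 cell-cycle genes on the siControl (square), miR-376c (circle) and siGRB2 (triangle) arrays minus its level on miControl (line at 0), by role, with 1 array per group and no error bar. Grey bars span both negative controls and dotted lines mark 1.5-fold. AURKB, CDKN1A and MAD2L1 have the widest spans, and no circle or triangle lies 1.5-fold beyond a bar.

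Among the cyclins, 6 of 7 were higher on miR-376c than on miControl (46.9% of all genes), with a median of 0.19 (5 or 6 of 7 over the alternatives). CCNB1, which partners CDK1 at mitotic entry, had levels of 3.01 on miControl, 3.15 on siControl, 3.05 on miR-376c and 2.79 on siGRB2. CCNA2, the cyclin of S phase and G2, had levels of 0.66, 0.36, 1.16 and 0.89 in the same order. For CCND1, the EGF-responsive G1 cyclin that activates CDK4 and CDK6, they were 0.52, -0.14, 0.89 and 0.92. For CCNA2 and CCND1 both treated arrays lay above both controls, whereas CCNB1 was lowest on siGRB2. Both were read by a probe with 10 spots, whose SD on an array was 0.0471 to 0.0658 for CCND1 and 0.0613 to 0.0823 for CCNA2. CCNB1 had 2 probes, and the one with 10 spots differed by only -0.05 between siGRB2 and miControl where the other gave -0.39. CCND1 on siGRB2 was 1.32-fold its miControl level and 2.09-fold its siControl level. CCNE2 had levels of -2.76 on miControl, -1.89 on siControl, -2.02 on miR-376c and -2.60 on siGRB2, and the miR-376c array lay between the controls. CCNB2, a mitotic cyclin, had levels of 3.80, 4.41, 3.99 and 3.77 in the same order. CCNE1, which acts at S phase entry, had levels of 0.69, 1.19, 0.75 and 0.64. CCND3, a G1 cyclin, had levels of -0.33, -1.04, -0.68 and -0.34. For siGRB2 these 3 differ from siControl by -0.64, -0.54 and 0.70 but from miControl by -0.03, -0.04 and -0.01.

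Of the kinases that cyclins activate, CDK1, the mitotic CDK, had levels of 2.46 on miControl, 2.95 on siControl, 2.54 on miR-376c and 2.25 on siGRB2. CDK4, which starts G1 progression with D cyclins, had levels of 2.82, 2.60, 3.32 and 3.03. CDK6, its close relative, had levels of 3.93, 4.29, 3.74 and 3.81. CDK4 was thus above both controls on both treated arrays and CDK6 below both. CDK2, the S phase kinase, was above both controls on both, by 0.20 (miR-376c) and 0.12 (siGRB2) from miControl and 0.47 and 0.38 from siControl.

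Of the CDK inhibitors, CDKN1A, which encodes p21, had levels of -3.22 on miControl, -4.72 on siControl, -3.42 on miR-376c and -3.48 on siGRB2. The siControl array alone was low, and the treated arrays differed from miControl by -0.20 and -0.26. CDKN1A was read by 1 probe with 1 spot. Its miR-376c minus siControl value ran from 0.68 to 1.37 over the alternatives, so it was not past 2-fold under all of them. CDKN1B, which encodes p27, had levels of 1.48, 1.14, 1.12 and 1.19 on miControl, siControl, miR-376c and siGRB2, and its -0.37 was the lowest member value for miR-376c minus miControl. Its 2 probes gave -0.63 and -0.10 there and -0.36 and -0.23 for siGRB2 minus miControl, but -0.85 and 0.17 between siControl and miControl, the second of each from 10 spots. CDKN2C, which encodes p18 and binds CDK4 and CDK6, was above both controls on both treated arrays, by 0.48 (miR-376c) and 0.19 (siGRB2) from miControl and 0.60 and 0.31 from siControl. CDKN3, a phosphatase that acts on CDKs and peaks in mitosis, had levels of 2.16, 2.34, 2.60 and 2.02 on miControl, siControl, miR-376c and siGRB2, highest on 1 treated array and lowest on the other.

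In the CDC25 family, which removes inhibitory phosphates from CDKs, CDC25C had levels of 0.04 on miControl, 0.02 on siControl, 0.32 on miR-376c and 0.12 on siGRB2. CDC25B, which acts earlier in G2, had levels of 1.69, 1.64, 1.36 and 1.57, the lowest value being on miR-376c, 1.26-fold below miControl. CDC25A, which acts at S phase entry, had levels of -0.72, -0.32, -0.42 and -0.91, lowest on siGRB2 and between the controls on miR-376c. Of the transcription factors of the late cell cycle, FOXM1 had levels of 1.66, 1.61, 1.63 and 1.66, a spread of 0.05 that is smaller than the scanner error. MYBL2, which encodes B-MYB, was at -0.81 on miControl, -1.40 on siControl, -0.84 on miR-376c and -0.77 on siGRB2, so that only siControl lay apart.

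All 4 mitotic kinases were higher on miR-376c than on miControl (46.9% of all genes), but AURKB by 0.00 only, and 3 or 4 were higher over the alternatives. PLK1, which drives mitotic entry and spindle assembly, had levels of -2.07 on miControl, -2.33 on siControl, -1.82 on miR-376c and -1.99 on siGRB2. AURKB, the kinase of the chromosomal passenger complex, had levels of 0.38, -0.96, 0.39 and 0.09. The low value on siControl alone made both treated arrays more than 2-fold higher than siControl. AURKA, the spindle pole kinase, stood above both controls on both arrays, by 0.25 (miR-376c) and 0.12 (siGRB2) from miControl and 0.50 and 0.37 from siControl. NEK2, a centrosome kinase, had levels of -0.42, 0.22, -0.10 and -0.45, with miR-376c between the controls. BIRC5 (survivin, of the same passenger complex as AURKB) had levels of 4.73, 5.33, 4.77 and 4.69. TOP2A, which untangles sister chromatids, was highest on miR-376c, 0.46 above miControl and 0.28 above siControl, and on siGRB2 it differed from them by 0.15 and -0.03. MKI67, which encodes the proliferation antigen Ki-67, had levels of 0.38, 0.18, 0.43 and 0.26, and for siGRB2 minus miControl its 3 probes gave 0.22, -0.20 and -0.41, so that it has no settled direction there.

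The spindle checkpoint list, which delays anaphase until kinetochores are attached, had a median of 0.33 for miR-376c minus miControl and of -0.30 for miR-376c minus siControl. BUB1, the checkpoint kinase at kinetochores, had levels of 1.88 on miControl, 2.40 on siControl, 2.10 on miR-376c and 1.95 on siGRB2. MAD2L1 had the widest range in this list, at 1.07, 2.28, 1.66 and 1.17. Its siControl level was 2.31-fold that of miControl, and the miR-376c array lay between them, so the sign of its difference depends on the control chosen. BUB1B and TTK were highest on miR-376c, by 0.33 and 0.36 over miControl and 0.38 and 0.70 over siControl. BUB3 gave -0.32 against siControl there and -0.10 against miControl, but its 2 probes differed in sign in both, with -0.81 and 0.17 against siControl and -0.22 and 0.03 against miControl.

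Kinetochore and centromere genes had the widest separation of the treated arrays among the 12 role lists, with a median of 0.46 for miR-376c minus siGRB2. All 5 were lower on siGRB2 than on miControl (median -0.19) and than on siControl (median -0.59), and 4 of 5 were higher on miR-376c than on miControl (median 0.27). Over all genes, siGRB2 was below both controls for 23.9%, and miR-376c was higher than miControl for 46.9% and than siGRB2 for 41.1%. For siGRB2 all 5 stayed lower than both controls, and for miR-376c minus siGRB2 all 5 stayed higher, under each way of normalizing and summarizing. These ways reuse the same arrays and do not measure error. For siGRB2 minus miControl, CENPA (-0.07), NDC80 (-0.15) and NUF2 (-0.19) lay within the scanner error of 0.204 to 0.228. CENPF (-0.23) was about as large as that error and CENPE (-0.33) larger. CENPF, a large kinetochore protein, had levels of 2.04 on miControl, 2.41 on siControl, 1.99 on miR-376c and 1.82 on siGRB2. CENPE, the kinesin that moves chromosomes to the spindle equator, had levels of 1.27, 1.48, 1.54 and 0.94 from a probe of 10 spots, whose SD was at most 0.0466 on any array. NDC80 had levels of 2.42, 2.97, 2.77 and 2.27. Its partner NUF2 in the complex that grips microtubules had levels of 1.35, 2.09, 1.62 and 1.16. CENPE was 1.51-fold higher on miR-376c than on siGRB2, NDC80 1.41-fold and NUF2 1.38-fold. CENPA, the centromeric histone, had levels of 0.25, 0.37, 0.59 and 0.18, highest on miR-376c and lowest on siGRB2.

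Among kinesins, motors of the spindle and midzone, KIF20A had levels of 1.64 on miControl, 1.52 on siControl, 2.03 on miR-376c and 1.86 on siGRB2. KIF11, which slides spindle poles apart, had levels of 1.10, 0.87, 1.54 and 1.28. Both were above both controls on both treated arrays. KIF23, of the central spindle, had levels of 1.53, 1.66, 1.79 and 1.49. KIF2C, which shortens microtubules, had levels of 3.68, 3.74, 3.66 and 3.63, the narrowest range of the kinesins. Of the spindle and midzone proteins, TPX2, an activator of AURKA, had levels of 2.83 on miControl, 2.94 on siControl and 3.12 on miR-376c, and on siGRB2 it was 0.17 above miControl and 0.06 above siControl. NUSAP1, DLGAP5, ASPM, PRC1 and ANLN, which bundle or anchor spindle microtubules or, for ANLN, shape the cleavage furrow, were 0.15 to 0.28 above miControl on miR-376c and from -0.64 (NUSAP1) to 0.01 (ASPM) against siControl. The same 6 genes were all higher on siControl than on miControl (44.0% of all genes), by 0.11 (TPX2) to 0.84 (NUSAP1). CDC20, which activates the anaphase-promoting complex, had levels of 0.95, 1.21, 1.47 and 1.44, so that it was 1.43-fold its miControl level on miR-376c and 0.49 log2 units above it on siGRB2. PTTG1, the securin that this complex destroys at anaphase, had levels of 5.15, 5.95, 5.18 and 5.13, with only siControl apart.

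**Figure D4:**
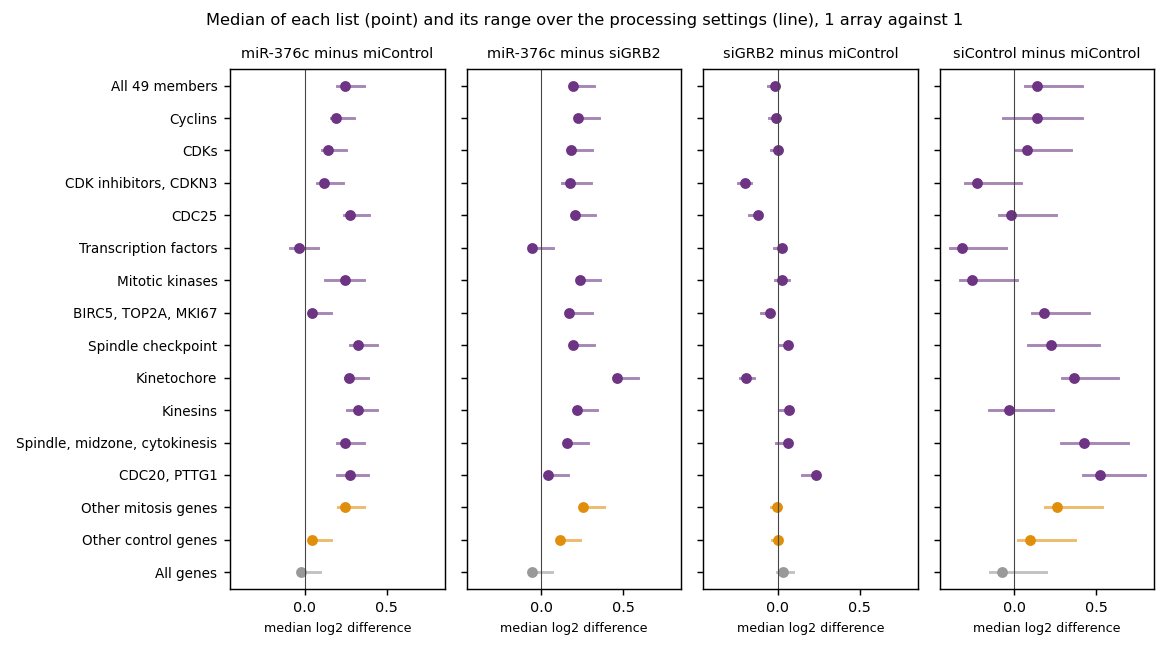
Median log2 difference (horizontal axis) of each role list, of 2 wider lists and of all genes (rows) in 4 comparisons of 1 array with another, where points give the reported setting and lines the range over 11 ways of normalizing and summarizing. Kinetochore genes lie at -0.19 in siGRB2 minus miControl, next to the CDK inhibitors at -0.20, and highest of the role lists in miR-376c minus siGRB2 (0.46), and lists whose line crosses 0, such as the cyclins in siControl minus miControl, have no settled sign.

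The treated arrays were also set against each other, which involves neither control. Of the 49 members, 41 were higher on miR-376c than on siGRB2 (41.1% of all genes), with a median of 0.20 where that of all genes was -0.06. At 1.5-fold CENPE (0.59) and CDKN3 (0.59) were higher (1.73% of all genes) and none lower (4.31%). The median stayed between 0.20 and 0.32 over the alternatives, 41 to 47 members being higher.

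By phase of the cycle, 31 of 35 G2 and M genes and 7 of 12 G1 and G1/S genes were higher on miR-376c than on miControl. The share over all genes was 46.9%, and the medians of these 2 lists were 0.25 and 0.13. Against siControl the order of the phases turned, with medians of 0.02 and 0.41 for miR-376c and of -0.18 and 0.35 for siGRB2, and for siGRB2 minus miControl they were -0.02 and 0.01. The controls differed by a median of 0.18 in siControl minus miControl for the G2 and M genes and of -0.24 for the G1 genes, whose sign turned under 1 scaling (range -0.32 to 0.03). The members with a CHR had a median of 0.25 for miR-376c minus miControl (23 genes) and those without of 0.04 (17 genes), but against siControl these were -0.11 and 0.06 for miR-376c and -0.32 and 0.05 for siGRB2. For siControl minus miControl the medians with and without were 0.26 and -0.12, and for siGRB2 minus miControl -0.02 and -0.04.

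Genes of the same processes outside the 50 were taken as a pair of wider lists. Of 73 other mitosis genes 72 were detected, and their median was 0.25 for miR-376c minus miControl (59 of 72 higher, 46.9% of all genes), -0.01 against siControl, -0.27 for siGRB2 minus siControl and -0.00 for siGRB2 minus miControl. At 1.5-fold, 3 were higher and 0 lower on miR-376c than on miControl (2.68% and 5.12% of all genes), and none passed on siGRB2 against miControl (2.71% higher and 2.4% lower of all genes). Of 48 other cell-cycle control genes 47 were detected, with medians of 0.05 (28 of 47 higher, 46.9% of all genes), 0.00, -0.06 and 0.00 in the same order. FAM83D, a spindle protein, had levels of 1.59 on miControl, 1.32 on siControl, 2.18 on miR-376c and 1.89 on siGRB2. E2F5, a transcription factor bound by RB family proteins, had levels of -2.41, -2.63, -1.90 and -1.82. SKP2, which targets p27 for destruction, had levels of -2.32, -2.90, -2.01 and -2.49. These 3 were the highest with miR-376c against the mean of both controls, and FAM83D and E2F5 lay above both controls on both treated arrays. CDKN2D, a CDK4 inhibitor, had levels of 1.83, 2.87, 1.66 and 1.74 and was among the lowest with both treatments. INCENP, the scaffold of the passenger complex, had levels of 0.36 on miControl, 0.03 on miR-376c and 0.62 on siGRB2 and was 0.64 above miControl on siControl, and ANAPC11, the catalytic subunit of the anaphase-promoting complex had levels of 6.69, 7.20, 6.44 and 6.64 in the usual order. With siGRB2 the highest against the mean of both controls were E2F4, ANAPC2 and E2F5, and the lowest were CDKN2D, NCAPG and HMMR. E2F4, the E2F of the DREAM complex, had levels of -2.21, -3.52, -2.37 and -1.81. ANAPC2, of the anaphase-promoting complex, had levels of -4.03, -5.15, -4.25 and -3.74. Both were lowest on siControl, and siGRB2 was 1.71 and 1.41 above siControl but 0.40 and 0.29 above miControl. At -5.15, ANAPC2 lay far below the 75th percentile of siControl, the array with the lowest raw intensity, so its 1.41 rests on a faint signal. NCAPG, a condensin subunit, had levels of -1.59 on miControl, -0.95 on siControl and -1.53 on miR-376c and differed on siGRB2 from the controls by -0.41 and -1.05. HMMR, a spindle protein, had levels of 2.83, 3.56, 2.99 and 2.56.

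Probes of 1 gene did not always give 1 answer. For the 11 members with several probes, the range between probes had a median of 0.18 for miR-376c minus miControl and of 0.34 for siControl minus miControl. The 2 CENPF probes gave 0.78 and -0.05 for siControl minus miControl. The BUB3 probes gave 0.59 and -0.14, and the 3 MKI67 probes -0.50, -0.05 and -0.07. MKI67 was also the member whose probes ranged most in siGRB2 minus siControl (by 1.06) and siGRB2 minus miControl (by 0.63). PLK1's value of 0.25 for miR-376c minus miControl is the mean of 0.57 and -0.07. In miR-376c minus miControl the probes shared a sign in 8 of 11 members, CCNE2 (0.70 and 0.79), CDKN3 (0.37 and 0.52) and ASPM (0.14 and 0.41) among them, but in only 5 of 11 in miR-376c minus siControl. The cause of these disagreements was not tested.

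**Figure D5:**
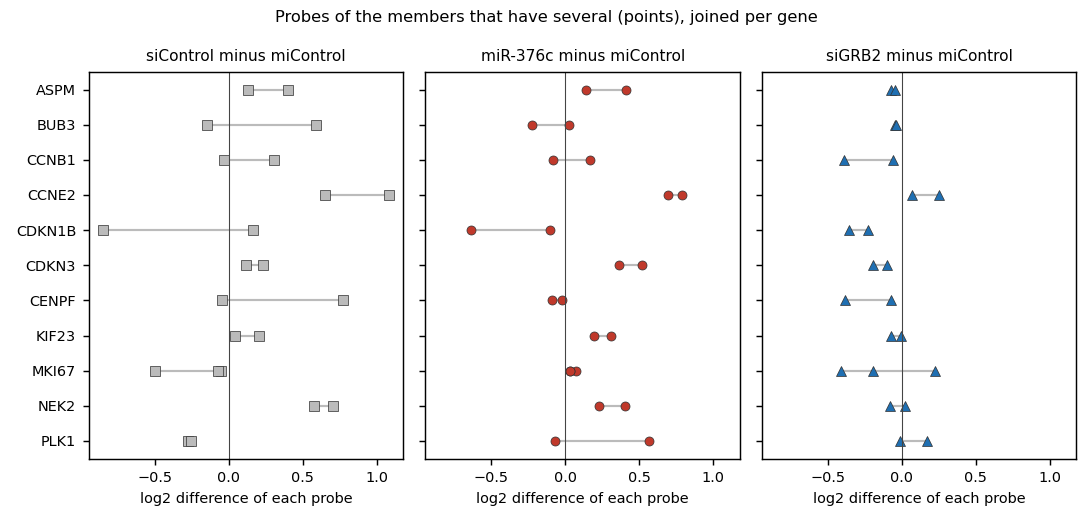
Log2 difference of every probe (points) of the 11 cell-cycle genes that have several, on siControl, miR-376c and siGRB2 minus miControl, joined by a line per gene. Probes of BUB3, CENPF and CDKN1B lie on both sides of 0 in siControl minus miControl, while the 2 CCNE2 probes are at 0.70 and 0.79 in miR-376c minus miControl.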

How the data were processed

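RNA of the 4 cultures (200 ng each) was labelled with Cy3 and hybridised to Agilent whole human genome arrays, 1 array per condition. The deposited scanner files hold spot intensity that the authors extracted with Agilent Feature Extraction 10.7.3.1 (10.7 in the submitters' processing notes), with the background subtracted. The array design names build GRCh37. The authors' table of log2 values, which was scaled per array to the 75th percentile, matched the scanner values minus a constant within 0.01 for over 99.9% of probes and was used as an alternative.

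Here control and outlier-flagged spots were left out, spots of a probe were averaged, and log2 of the 75th percentile of each array was subtracted (Python 3.11.15, pandas 2.3.3). Probes well above background in more than 0.5 of their spots on all 4 arrays were kept, and probes of a gene were averaged. Accessions named 25422 of 34127 probes (74.5%) through RefSeq genes of GRCh38.p14, used for names only. The 4 arrays shared 1 slide and 1 scan. With 1 array per group no test was run, and precision is limited by the array number. Members and lists were chosen with earlier results of these data known. Values on all arrays are printed for members at least 2-fold from either control, the 5 highest and 5 lowest per treatment against the mean of both controls, the first member of each role list, and the 3 highest and lowest of the wider lists. Other members were given in full after their values were seen. Alternatives were quantile normalization, a shift to the median, a percentile over detected probes, normexp (limma 3.58.1, offset 50), other probe and spot rules, centring on all genes, the mean of both controls and other fold limits. The steps were tested on simulated data.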

Additional observations from a re-analysis of the deposited data

Results flagged for a closer look

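For 5 members, Pre-miR-376c and siGRB2 lay on opposite sides of both negative controls, the miR-376c array above and the siGRB2 array below. The log2 difference miR-376c minus siGRB2 was 0.59 for CDKN3, 0.41 for CENPA, 0.59 for CENPE, 0.29 for KIF23 and 0.33 for ASPM. Over all genes such opposite positions, in either order, held for 8.78%, and 5 of 49 members is close to that share. With 1 array per group, the difference was not tested. The position above both controls held under all 11 ways of normalizing and summarizing for CDKN3 and CENPA, 10 for CENPE, 9 for KIF23 and 7 for ASPM. As a difference between the treated arrays, both probes were above 0 for CDKN3 (0.61 and 0.56), ASPM (0.45 and 0.21) and KIF23 (0.31 and 0.27). Both CDKN3 probes also gave the opposite positions. For ASPM and KIF23, 1 of the 2 probes had miR-376c lower than siControl (-0.26 and -0.01).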

How the results depend on the processing

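List medians and counts were recomputed under 14 alternatives, 268 times in all, and 206 kept within the limits set (0.0459 log2 units for a median, 1.5 times for a count). None changed sign while called. The siGRB2 minus miControl median held under all that were run. Alternatives for siControl minus miControl and miR-376c minus siGRB2 were added after seeing the data. The counts of members in this section are given without the share over all genes under the same alternative. They show only how the counts move with the processing and are not results about the members.

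With a shift to the median, which moved the median of all genes for siGRB2 minus siControl from 0.11 to -0.17, the members' median was 0.36 for miR-376c minus miControl, -0.14 for miR-376c minus siControl, -0.45 for siGRB2 minus siControl, 0.41 for siControl minus miControl and 0.32 for miR-376c minus siGRB2. Members at least 1.5-fold higher were then 6, 4, 3, 17 and 7 in that order. Those lower were 7 for miR-376c minus siControl, 21 for siGRB2 minus siControl and 2 for siControl minus miControl. For 3 members miR-376c lay below both controls. The same shift moved the median of all genes for siControl minus miControl from -0.08 to 0.19.
Quantile normalization gave medians of 0.13 (miR-376c minus siControl), -0.072 (siGRB2 minus siControl) and 0.068 (siControl minus miControl), with 1 member higher for miR-376c minus miControl and 1 lower for miR-376c minus siControl.
The percentile over detected probes gave medians of 0.086 (miR-376c minus siControl) and 0.067 (siControl minus miControl), with 1 member higher for miR-376c minus miControl, 1 lower for miR-376c minus siControl and 5 higher for siControl minus miControl.
Normexp gave a median of 0.20 with 1 member higher for miR-376c minus miControl, and 1 higher for miR-376c minus siGRB2.
The deposited log2 table gave medians of -0.24 (siGRB2 minus siControl) and 0.21 (siControl minus miControl), with 5 members lower for miR-376c minus siControl, as did the brightest probe (5).
Centring on all genes gave medians of -0.041 (miR-376c minus siControl), -0.28 (siGRB2 minus siControl), 0.22 (siControl minus miControl) and 0.26 (miR-376c minus siGRB2), with 5 members lower, 3 higher and 3 lower in the first 3 of these.
Against the mean of both controls the medians were 0.14 for miR-376c (4 members higher) and -0.10 for siGRB2 (1 higher, 0 lower), and MAD2L1 reversed for miR-376c, from 0.59 against miControl to -0.018.
At 2-fold the counts higher and lower were 0 and 0 for miR-376c minus miControl, 3 and 0 for miR-376c minus siControl, 3 and 1 for siGRB2 minus siControl, 1 and 2 for siControl minus miControl and 0 and 0 for miR-376c minus siGRB2.
At the lower limit of 0.32 log2 units they were 15 and 3, 15 and 13, 12 and 20, 17 higher for siControl minus miControl and 11 and 1 for miR-376c minus siGRB2, with 2 and 1 for siGRB2 minus miControl.
Of 3332 values for single members, 3156 moved by at most 0.2, 175 by more, and 1 was counted as reversed. Other values also changed sign without being counted as reversed. For miR-376c, CDKN1A was -0.20 against miControl but 0.55 against the mean of both controls. PTTG1 was 0.03 and -0.37 in the same order. These signs turned with the change of control, which brings in the siControl array. The causes were not tested.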
